A study of Caenorhabditis elegans with 22 samples.

Results

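The UDP-glucuronosyltransferase family of Caenorhabditis elegans is described here across mitochondrial mutants, an apoptosis mutant, their double mutants, paraquat treatment and untreated wild type. Its members were all genes whose symbol starts with ugt-. RefSeq lists 67 such genes, 42 of them on chromosome V, 12 on IV, 5 on I, 4 on X, 3 on III and 1 on II. The array measured 64 of them, among 17118 genes with a probe set of their own. No probe set carried the symbol of ugt-34, ugt-49 or ugt-65 alone. A filter on low signal left 46 of the 64 for testing, among 9647 genes tested.

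UDP-glucuronosyltransferases are enzymes of the endoplasmic reticulum membrane that move a sugar from a UDP-sugar donor onto small, fat-soluble molecules. The sugar makes the molecule more soluble in water, so that transporters can carry it out of the cell. This conjugation is called phase II of detoxification, after oxidation and reduction by phase I enzymes such as the cytochromes P450 and the short-chain dehydrogenases. Nematodes attach largely glucose rather than glucuronic acid, and their intestine is a main tissue of such metabolism. The substrates of most single ugt genes of the worm have not been assigned, so the members are described here by their place in the genome and by how they moved.

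Each group held 3 arrays except untreated wild type, which had 4. The groups were isp-1(qm150), nuo-6(qm200), wild type treated with 0.1 mM paraquat, ced-4(n1162), the double mutants isp-1(qm150) ced-4(n1162) and nuo-6(qm200);ced-4(n1162), and wild type Bristol N2, which was also the strain background of the mutants. isp-1 encodes the Rieske iron-sulfur protein of respiratory complex III, nuo-6 a subunit of complex I, and ced-4 the adaptor that activates the caspase of programmed cell death. Paraquat is a herbicide that cycles electrons and forms superoxide inside cells. All animals were hermaphrodites from an egg lay of 4 hours, collected as whole young adults, so fewer cells of a type and less RNA per cell cannot be told apart. The samples are biological replicates by label, with no word on separate cultures, and the p-values therefore cover no more than the spread among these arrays. The study set the mutants and paraquat against wild type and looked for a pattern common to isp-1, nuo-6 and paraquat.

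Signals are log2 values, so a difference of 1 is a doubling. Probe sets bind differently, so the values of 1 gene are read across arrays. Calls were made where the p adjusted by Benjamini-Hochberg over all probe sets tested was under 0.05, in a limma fit that shared 1 estimate of the spread over the 22 arrays. The ced-4 probe set fell by 1.89 in ced-4, by 2.52 in nuo-6 ced-4 and by 1.92 in isp-1 ced-4 (log2, wild type as the comparison), whereas the isp-1 probe set differed by 0.04 in isp-1 (adjusted p = 0.769). In nuo-6 the nuo-6 probe set differed by 0.28 (adjusted p = 0.049). 3 arrays stood apart over all probe sets. Wild type replicate 1 lay at -5.21 on the second principal component, against -49.05 to -61.61 for the other wild type arrays. The first isp-1 array correlated at 0.996 with the first nuo-6 array and at 0.989 and 0.986 with the other isp-1 arrays. The first isp-1 ced-4 array lay at 38.4 on the first principal component, against 88.5 and 96.2 for its partners. Leaving out these 3 arrays was an alternative added after seeing the data, and its counts are given beside the number of called members of each comparison. Wild type replicate 3 was low across the family, with 10 of 46 members above the wild type mean and 36 below it.

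The 18 members that did not reach the filter were ugt-3, ugt-10, ugt-14, ugt-15, ugt-27, ugt-33, ugt-35, ugt-36, ugt-37, ugt-38, ugt-40, ugt-42, ugt-54, ugt-55, ugt-56, ugt-57, ugt-59 and ugt-67. Their highest value on any array ran between 1.67 and 5.51, with a median of 2.64, whereas the median of the whole table was 3.68. The filter asked for a value at or above that median on at least 3 arrays, so these members were not measurable as changed or unchanged. The tested members came from every chromosome that holds the family: 26 on V, 9 on IV, 4 on I, 3 on III, 3 on X and 1 on II. The probe sets of 34 were specific to 1 transcript. For ugt-5, ugt-6, ugt-12, ugt-17, ugt-24, ugt-29, ugt-46, ugt-48, ugt-51, ugt-58, ugt-60 and ugt-64 the probe set may bind more than 1 transcript, and their values are uncertain for that reason.

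In isp-1, 10 members rose and 7 fell, and in nuo-6, 17 rose and 7 fell, against wild type. Over all genes tested, 23.3% were called in isp-1 (13.0% higher and 10.3% lower) and 33.9% in nuo-6 (18.2% higher and 15.7% lower). The called members were 37% of the 46 in isp-1 and 52.2% in nuo-6. The median difference of the 46 members was 0.18 in isp-1 and 0.27 in nuo-6, against 0.05 and 0.03 over all genes tested. Leaving out the 3 arrays that stood apart gave 10 rises and 8 falls in isp-1, and 18 rises and 7 falls in nuo-6. Fits of only the groups compared called 8 members in isp-1 and 15 in nuo-6. For such fits, here and below, the shares over all genes are not given. Oocyte and early embryo markers moved too: 5 of 16 rose in isp-1 and 6 of 16 in nuo-6, with none lower. Their part in the ugt differences was not tested. The comparisons of all 6 groups with wild type share the wild type arrays, so the values of different groups are given side by side.

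The largest rises in both mutants belonged to ugt-61 on chromosome V and to ugt-21 and ugt-19 on chromosome IV. The ugt-61 signal was 8.87, 8.21 and 7.77 in isp-1 and 9.17, 9.02 and 8.86 in nuo-6, against 6.96, 5.52, 5.08 and 5.54 in wild type. Every mutant array lay above every wild type array, and the highest wild type array was replicate 1. The difference was 2.50 in isp-1 (SE 0.37, adjusted p = 0.000199), or 5.68-fold, and 3.24 in nuo-6 (SE 0.37, adjusted p = 8.58e-06), or 9.44-fold. The ugt-21 signal was 8.52, 8.13 and 8.24 in isp-1 and 8.94, 8.97 and 8.68 in nuo-6, against 5.76, 6.66, 4.82 and 5.98 in wild type. Here too the mutant arrays did not overlap wild type, with differences of 2.49 in isp-1 (SE 0.30, adjusted p = 2.95e-05) and 3.06 in nuo-6 (SE 0.30, adjusted p = 2.31e-06). For ugt-19 the values were 8.79, 8.21 and 7.15 in isp-1 and 8.85, 7.42 and 9.34 in nuo-6, against 5.62, 6.52, 5.35 and 5.34 in wild type. The lowest mutant arrays of ugt-19 came within 1 log2 unit of the highest wild type array, and the differences were 2.35 in isp-1 (SE 0.44, adjusted p = 0.00139) and 2.83 in nuo-6 (SE 0.44, adjusted p = 0.000163).

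Smaller rises with non-overlapping arrays were seen for ugt-50 on X, ugt-62 on III and ugt-13 on V. The ugt-50 signal was 7.97, 8.14 and 7.87 in isp-1 and 8.46, 7.52 and 8.42 in nuo-6, against 6.67, 6.28, 5.93 and 6.19 in wild type, with differences of 1.73 and 1.86 (SE 0.24 each). The ugt-62 probe set read 12.14, 11.83 and 11.30 in isp-1 and 12.18, 11.79 and 12.45 in nuo-6, against 10.49, 10.57, 9.78 and 10.16 in wild type. These ugt-62 values gave differences of 1.51 in isp-1 (adjusted p = 0.000156) and 1.89 in nuo-6 (adjusted p = 9.2e-06). ugt-13 rose by 1.39 in isp-1 and by 0.94 in nuo-6, where its difference was 0.73 without the second nuo-6 array (adjusted p = 0.104). ugt-2 rose by 1.54 and 1.87, and its lowest isp-1 array (7.70) lay under the highest wild type array (7.79). The isp-1 difference of ugt-2 was 0.91 without the 3 arrays that stood apart (adjusted p = 0.0501). The rise of ugt-39, 1.03 in isp-1 and 1.25 in nuo-6, was 0.58 in isp-1 without its first array (adjusted p = 0.125). ugt-8 was called in isp-1, by 1.07 (adjusted p = 0.0495), and read 4.26, 4.79 and 6.38 in isp-1, against 4.31, 3.55, 3.81 and 4.61 in wild type. The third isp-1 array was the high one, and without it the difference was 0.45 (adjusted p = 0.326). The call also ended without wild type replicate 2 or 3 (adjusted p = 0.117 and 0.095). ugt-51 rose by 1.15 in nuo-6 (adjusted p = 0.0195), and its difference was 0.55 without the second nuo-6 array (adjusted p = 0.157).

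The neighbours ugt-43 and ugt-44 on chromosome IV rose in nuo-6 by 2.29 (SE 0.64, adjusted p = 0.0106) and 2.80 (SE 0.59, adjusted p = 0.0016). In isp-1 they split by array. The ugt-44 signal was 10.55 on the first isp-1 array and 8.56 and 7.74 on the other isp-1 arrays, and 10.22, 10.26 and 10.67 in nuo-6, against 9.41, 7.22, 7.47 and 6.22 in wild type. The first isp-1 array thus read like the nuo-6 arrays, and wild type replicate 1 stood above its partners. ugt-43 showed the same split, with 5.47, 2.69 and 2.02 in isp-1 and 4.98, 3.81 and 5.78 in nuo-6, against 2.84, 2.24, 2.87 and 2.31 in wild type. Its call in nuo-6 ended without the third nuo-6 array (1.83, adjusted p = 0.0655).

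The falls were led by ugt-26 on chromosome I, which gave the largest difference of any member in isp-1. Its signal was 7.65, 5.79 and 5.44 in isp-1 and 7.15, 8.74 and 7.41 in nuo-6, against 10.43, 9.98, 9.43 and 10.52 in wild type. No mutant array reached the lowest wild type array, and ugt-26 fell by 3.8 in isp-1 (SE 0.43, adjusted p = 1.44e-05), or 13.9-fold, and by 2.32 in nuo-6 (adjusted p = 0.000611). The ugt-29 signal was 5.53, 5.69 and 5.38 in isp-1 and 5.82, 6.10 and 6.33 in nuo-6, against 8.66, 7.88, 8.19 and 8.40 in wild type. These groups stood well apart, and ugt-29 fell by 2.75 in isp-1 (SE 0.24, adjusted p = 1.01e-06) and by 2.20 in nuo-6 (SE 0.24, adjusted p = 6.57e-06). ugt-31, also on chromosome I, fell by 2.51 in isp-1 and by 1.41 in nuo-6. ugt-53 read 3.81, 3.25 and 3.36 in isp-1 and 3.71, 4.29 and 3.35 in nuo-6, against 6.94, 5.86, 4.33 and 6.15 in wild type. Its mutant values lay around the median of the table, and it fell by 2.35 and 2.04. ugt-66 fell by 1.63 in isp-1 and by 1.46 in nuo-6. ugt-64 fell by 0.81 in nuo-6, and in isp-1 it fell by 0.54 (adjusted p = 0.0458). Without the second isp-1 array the isp-1 difference of ugt-64 was -0.43 (adjusted p = 0.177).

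**Figure D1:**
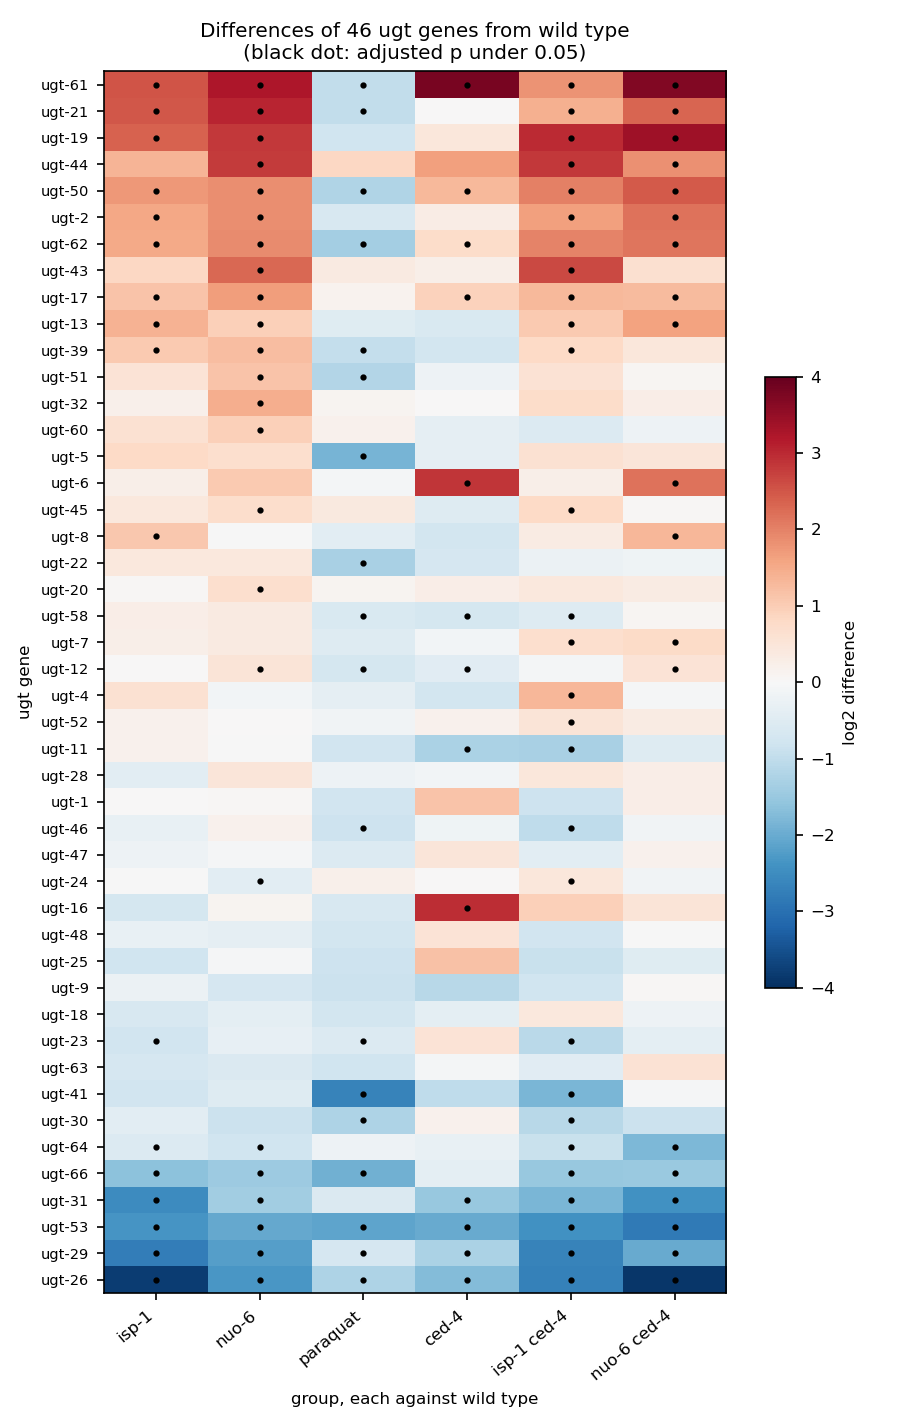
Log2 difference from wild type of the 46 tested ugt genes (vertical axis) in the 6 other groups (horizontal axis), coloured by size and direction, with a dot where the gene was called. Each gene is drawn by 1 probe set. ugt-26, ugt-29 and ugt-53 carry a dot and a fall in every column, whereas ugt-50, ugt-61 and ugt-62 carry a dot in every column with a fall in paraquat alone.

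Set against each other, nuo-6 and isp-1 gave no called member with limma, where 0.0% of all genes were called higher and 0.0104% lower, and 11 members had an unadjusted p under 0.05. This count depended on the first isp-1 array, which lay close to the nuo-6 arrays. Without it, 8 members were called in nuo-6 against isp-1, 6 higher and 2 lower, where 6.07% of all genes were called. ugt-43 was then higher in nuo-6 by 2.50 (adjusted p = 0.0118), ugt-44 by 2.23 (adjusted p = 0.0286) and ugt-26 by 2.15 (adjusted p = 0.0026). ugt-31, ugt-32 and ugt-17 were also higher in nuo-6, by 1.62, 1.62 and 1.01. ugt-8 was lower in nuo-6 (log2 difference -1.53, adjusted p = 0.0291), as was ugt-24 (-0.51, adjusted p = 0.0349). These 8 genes were named after their values were seen. Without all 3 arrays that stood apart, 12 members were called, 9 higher and 3 lower in nuo-6, where 9.29% of all genes were called.

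With paraquat the called members of the family were all lower than in wild type. Of the 46 members, 18 fell and 0 rose with limma, where 25.9% of all genes tested rose and 16.2% fell, 42.1% in all. The fallen members were 39.1% of the 46. At an unadjusted p under 0.05, 0 were higher and 22 lower. The family's median difference was -0.70, against 0.10 over all genes, and each paraquat array had 37 or more of the 46 members under the wild type mean. The loss of the second paraquat array cut the called falls to 9. Without the 3 arrays that stood apart 19 fell and 1 rose, and the riser was ugt-44, by 1.45 (adjusted p = 0.00117). Leaving out wild type replicate 1 alone gave the same rise of ugt-44 (adjusted p = 0.023). ugt-45 was called higher when each array was centred on its median (0.52, adjusted p = 0.0423) and without the third paraquat array (0.59, adjusted p = 0.0383). Centring shifted the median of all genes by 0.12 in this comparison and cyclic loess shifted it by -0.14, and the family's median was -0.58 and -0.88 under them, with 14 and 22 members lower.

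The largest fall with paraquat was that of ugt-41 on chromosome V. Its signal was 4.66, 4.68 and 4.90 with paraquat, against 7.51, 7.31, 6.21 and 8.62 in wild type. The treated arrays lay close together and under every wild type array, and ugt-41 fell by 2.67 (SE 0.38, adjusted p = 2.38e-05), or 6.36-fold. In isp-1 and nuo-6 it was not called (-0.75, adjusted p = 0.167, and -0.52, adjusted p = 0.311). ugt-5, another gene of chromosome V, read 5.21, 3.91 and 5.14 with paraquat, against 7.21, 6.13, 6.77 and 6.31 in wild type. It fell by 1.85 (SE 0.33, adjusted p = 0.000205), and its values in isp-1 and nuo-6 overlapped wild type. ugt-22 read 8.78, 8.37 and 9.21 with paraquat, against 10.65, 9.96, 9.33 and 10.35 in wild type. All treated arrays were under the lowest wild type array, replicate 3, and ugt-22 fell by 1.29 (adjusted p = 0.000305). ugt-53 fell by 2.09 and ugt-66 by 1.92, with all 6 treated values between 3.34 and 3.83, around the median of the table.

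Several members that rose in the mutants fell with paraquat. For ugt-62 the paraquat signal was 8.76, 8.89 and 8.98, under every wild type array, and the difference was -1.37 (SE 0.22, adjusted p = 6.86e-05). ugt-50 read 5.35, 5.26 and 4.61 with paraquat and fell by 1.20 (SE 0.24, adjusted p = 0.000668). Its other probe sets were not called with paraquat (-0.54, adjusted p = 0.0789, and -0.51, adjusted p = 0.221). The paraquat values of ugt-21 were 4.80, 4.66 and 4.99, of which 1 lay above the lowest wild type array, and it fell by 0.99 (adjusted p = 0.014). Without the second paraquat array its adjusted p was 0.0543. ugt-61 read 4.99, 4.52 and 4.88 with paraquat and fell by 0.98 (adjusted p = 0.0415). Without wild type replicate 1 the ugt-61 difference was -0.59 (adjusted p = 0.13). ugt-39 fell by 0.94 and ugt-51 by 1.16, and both calls ended without the second paraquat array (adjusted p = 0.069 and 0.072). ugt-51 had been called higher in nuo-6 but not in isp-1, and its nuo-6 call ended without the second nuo-6 array, as given above. ugt-12, which rose by 0.52 in nuo-6, fell by 0.72 with paraquat (adjusted p = 0.000694). ugt-19 was not called with paraquat, although its 4.99, 4.55 and 5.15 all lay under the lowest wild type value of 5.34 (difference -0.81, adjusted p = 0.157).

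ugt-26, ugt-29, ugt-53 and ugt-66 were lower in isp-1, nuo-6 and paraquat, 3 comparisons that share the wild type arrays. The paraquat falls were 1.22 for ugt-26 and 0.68 for ugt-29. Both calls were fragile. The ugt-26 difference was -1.08 without wild type replicate 4 (adjusted p = 0.0767), and that of ugt-29 was -0.43 without the first paraquat array (adjusted p = 0.208).

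Markers of other cells moved with paraquat. All 10 tested sperm markers fell, and their mean over an array ran between 4.92 and 5.57 with paraquat, against 7.86 and 8.75 in wild type. All 16 oocyte and early embryo markers rose, with array means of 11.91 to 11.98 with paraquat, against 10.9 to 11.4 in wild type. Of 21 intestinal markers, 8 fell and none rose, with array means of 10.1 to 10.3 with paraquat, against 10.4 to 10.7 in wild type. Their part in the falls of the ugt genes was not tested. In isp-1 and nuo-6, 5 of the 10 sperm markers fell in each and none rose. Of the 21 intestinal markers 1 rose and 4 fell in isp-1, and 2 rose and 2 fell in nuo-6. Over all genes tested, 25.9% rose and 16.2% fell with paraquat. In isp-1 13.0% rose and 10.3% fell, 23.3% in all, and in nuo-6 18.2% and 15.7%, 33.9% in all.

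The difference between the mutants and paraquat was tested directly as the mean of isp-1 and nuo-6 against paraquat, a comparison without wild type arrays. 19 members were higher in the mutants and 5 were lower, where 22.6% of all genes were higher and 25.4% lower, 48.0% in all. The family's median difference was 0.72, against -0.06 over all genes tested. ugt-61 was higher in the mutants by 3.86 (SE 0.34, adjusted p = 4.85e-07), ugt-21 by 3.76 (SE 0.28, adjusted p = 6.83e-08) and ugt-19 by 3.40 (SE 0.41, adjusted p = 1.14e-05). ugt-62 was higher by 3.07 (SE 0.20, adjusted p = 1.27e-08), ugt-50 by 2.99 (SE 0.23, adjusted p = 6.95e-08) and ugt-5 by 2.58 (SE 0.31, adjusted p = 9.81e-06). The 5 lower members were ugt-26 (-1.84), ugt-29 (-1.79), ugt-31 (-1.40), ugt-64 (-0.46) and ugt-24 (-0.42). The ugt-64 difference lost its call under cyclic loess (-0.32, adjusted p = 0.166). These counts were 22 and 5 without the 3 arrays that stood apart. All 10 sperm markers were higher in the mutants in this comparison, 13 of 16 oocyte markers were lower and 7 of 21 intestinal markers were higher. Their part in it was not tested.

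**Figure D2:**
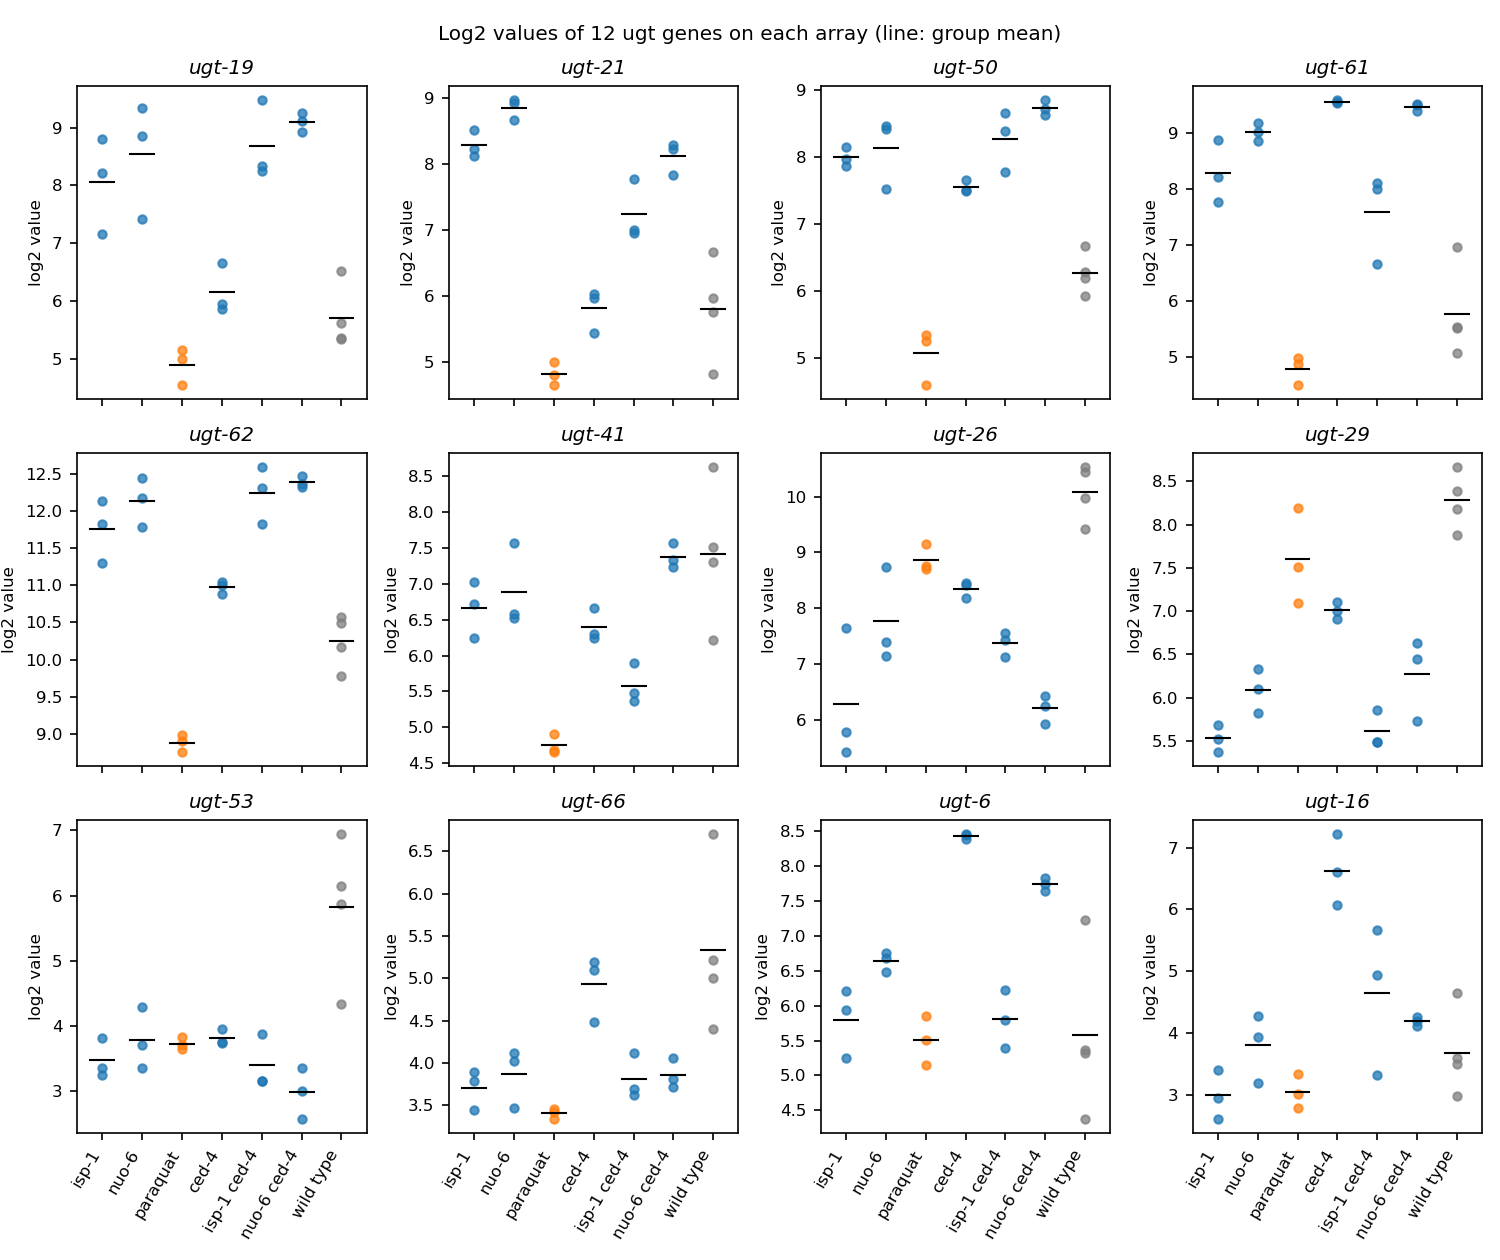
Log2 signal (vertical axis) of 12 ugt genes on each of the 22 arrays, with 1 point per array and the groups along the horizontal axis. ugt-19, ugt-21, ugt-50, ugt-61 and ugt-62 lie above wild type in isp-1 and nuo-6, ugt-41 is lowest in paraquat, and ugt-6 and ugt-16 are highest in ced-4.

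In ced-4, 6 members rose and 7 fell against wild type, where 7.02% of all genes rose and 7.87% fell, 14.9% in all. The called members were 28.3% of the 46, and the family's median difference was -0.11, against -0.04 over all genes. The counts were 10 and 9 without the 3 arrays that stood apart, and a fit of ced-4 and wild type alone called 8 members. ugt-61 read 9.59, 9.54 and 9.56 in ced-4, against 6.96, 5.52, 5.08 and 5.54 in wild type. These were the tightest arrays of that gene, and it rose by 3.78 (SE 0.37, adjusted p = 4.54e-07), or 13.8-fold. ugt-16 read 7.22, 6.07 and 6.60 in ced-4, against 4.65, 3.60, 2.99 and 3.5 in wild type, and rose by 2.95 (SE 0.45, adjusted p = 0.000134). ugt-6 read 8.39, 8.44 and 8.45, against 7.23, 5.33, 4.38 and 5.37, and rose by 2.85 (SE 0.43, adjusted p = 0.000101). In both, wild type replicate 1 was the highest wild type array and did not reach ced-4. Neither ugt-16 nor ugt-6 was called in isp-1, nuo-6 or paraquat.

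The smaller ced-4 rises were less secure. ugt-62 rose by 0.73, and its difference was 0.58 without wild type replicate 3 (adjusted p = 0.089). ugt-17 rose by 0.93, and its difference was 0.76 without wild type replicate 4 (adjusted p = 0.104). The ugt-50 rise of 1.28 was that of its probe set with the highest mean, and the mean of its 3 probe sets differed by 0.25 (adjusted p = 0.431). Among the falls, ugt-53 fell by 2.00, ugt-26 by 1.74, ugt-31 by 1.5 and ugt-29 by 1.27. ugt-11 fell by 1.25 and ugt-58 by 0.69. The ugt-11 call ended without wild type replicate 2 or 4, of which replicate 4 gave -1.01 (adjusted p = 0.0629), and without the first or the third ced-4 array, of which the third gave -1.20 (adjusted p = 0.0665).

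Hypodermis and molting genes stood apart in ced-4: 10 of 13 tested rose and none fell, with array means of 7.09 to 7.22 in ced-4, against 4.15 to 4.81 in wild type. The nuo-6 ced-4 arrays were at 6.96 to 7.01 and the isp-1 ced-4 arrays at 4.27 to 4.52. ugt-6 followed the same order, with 7.64, 7.82 and 7.74 in nuo-6 ced-4 and 5.39, 5.80 and 6.23 in isp-1 ced-4. Of the other large ced-4 rises, ugt-61 followed it as well and ugt-16 did not. ugt-16 read 4.11, 4.25 and 4.2 in nuo-6 ced-4 and 5.67, 4.94 and 3.33 in isp-1 ced-4. The part of the hypodermis and molting genes in the ugt differences was not tested.

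The double mutants repeat each mitochondrial mutation on a ced-4 background, so their comparison with ced-4 shares no array with that of the single mutants and wild type. With isp-1 ced-4 set against ced-4, 15 members rose and 13 fell, where 29.5% of all genes rose and 22.6% fell, 52.1% in all. Under cyclic loess, which shifted the median of all genes by -0.16, the counts were 11 and 14, and without the 3 arrays that stood apart they were 18 and 14. With nuo-6 ced-4 set against ced-4, 11 members rose and 5 fell, where 9.51% of all genes rose and 8.69% fell, 18.2% in all. Leaving out the 3 arrays that stood apart gave 14 and 6, and a fit of those groups alone called 35. Markers of other cells differed as well. In isp-1 ced-4, with ced-4 as the comparison, all 10 sperm markers were lower (median difference -3.04), 15 of 16 oocyte markers higher and 11 of 13 hypodermis and molting genes lower (median -2.50). In nuo-6 ced-4 none of the 10 sperm markers was called, 2 of 16 oocyte markers were lower, and 1 hypodermis and molting gene was higher and 1 lower. Their part in the ugt differences was not tested.

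Of the 10 members that rose in isp-1 against wild type, 8 also rose in isp-1 ced-4 against ced-4, namely ugt-2, ugt-8, ugt-13, ugt-19, ugt-21, ugt-39, ugt-50 and ugt-62. The ugt-8 call in isp-1 ended without the third isp-1 array, as given above. These 8 were 80.0% of the 10 and 53.3% of the 15. Over all genes the shares were 64.3% and 28.3%. For nuo-6, 8 of the 17 risers also rose in nuo-6 ced-4 against ced-4 (ugt-2, ugt-12, ugt-13, ugt-19, ugt-21, ugt-39, ugt-50 and ugt-62), which was 47.1% of the 17 and 72.7% of the 11, and the shares over all genes were 33.8% and 64.7%. Both double mutants were set against the same ced-4 arrays. ugt-19 read 8.33, 9.47 and 8.24 in isp-1 ced-4 and 8.92, 9.11 and 9.25 in nuo-6 ced-4, against 5.94, 5.86 and 6.65 in ced-4, and it rose by 2.53 and 2.95. ugt-21 rose by 1.42 and 2.30 and ugt-62 by 1.26 and 1.41. ugt-13 rose by 1.65 in isp-1 ced-4 and by 2.20 in nuo-6 ced-4.

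Shared falls were fewer in number. ugt-23, ugt-29, ugt-64 and ugt-66 fell in both isp-1 comparisons, 57.1% of 7 and 30.8% of 13, where all genes gave 73.6% and 33.4%. ugt-26 and ugt-64 fell in both nuo-6 comparisons, 28.6% of 7 and 2 of 5, where all genes gave 20.4% and 36.9%. ugt-64 fell by 0.62 in isp-1 ced-4 and by 1.51 with nuo-6 ced-4 set against ced-4. The largest falls of isp-1 ced-4 from ced-4 were those of ugt-6 (2.62), ugt-25 (2.06) and ugt-16 (1.99), and those of nuo-6 ced-4 were ugt-16 (2.44), ugt-26 (2.14) and ugt-25 (1.65). The ugt-25 call in nuo-6 ced-4 ended without its first array (-1.53, adjusted p = 0.0766). ugt-61 was the 1 member called in opposite directions on the 2 backgrounds: it rose by 2.50 in isp-1 against wild type and fell by 1.97 in isp-1 ced-4 against ced-4 (SE 0.40, adjusted p = 0.000569).

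Whether a mutation acted differently on the ced-4 background was tested as an interaction, the difference in the double mutant against ced-4 minus the difference in the single mutant against wild type. With isp-1, 9 members were called, 6 positive and 3 negative, where 7.74% of all genes were called positive and 10.6% negative, 18.4% in all. Without the 3 arrays that stood apart 11 were called, and without the second isp-1 array, or the second or the third ced-4 array, 5 were, as in a fit of only the groups compared. Of the markers, 10 of 13 hypodermis and molting genes and 5 of 10 sperm markers had a negative interaction, and their part was not tested. ugt-61 gave the largest, -4.48 (SE 0.55, adjusted p = 1.27e-05). Its signal was 6.66, 8.10 and 8.0 in isp-1 ced-4, under the 9.54 to 9.59 of ced-4, and the first of these arrays lay under wild type replicate 1. ugt-6 gave -2.85 (SE 0.62, adjusted p = 0.00454), and ugt-1 gave -1.99 (adjusted p = 0.039), which was -1.60 without the first isp-1 ced-4 array (adjusted p = 0.0821) and -1.20 without the second isp-1 array (adjusted p = 0.0702). The positive interactions were led by ugt-26 (2.82), ugt-31 (2.20) and ugt-53 (1.93), whose differences were more negative in isp-1 than on the ced-4 background. The ugt-53 interaction was 1.69 without the third isp-1 ced-4 array (adjusted p = 0.0899). ugt-53 read 3.96, 3.74 and 3.75 in ced-4 and 3.16, 3.15 and 3.87 in isp-1 ced-4, around the table's median of 3.68.

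With nuo-6, 6 interactions were called, 3 in each direction, where 6.49% of all genes were called positive and 4.9% negative, 11.4% in all. Without the 3 arrays that stood apart 11 were called. 2 were left without the third nuo-6 array, and 3 without any 1 of the ced-4 arrays or without the first nuo-6 ced-4 array, and 10 were called in a fit of only the groups compared. 4 of 10 sperm markers had a positive interaction and 4 of 16 oocyte markers a negative one, and their part was not tested. ugt-61 again led, with -3.33 (SE 0.55, adjusted p = 0.00202). It read 9.5, 9.40 and 9.51 in nuo-6 ced-4 against 9.59, 9.54 and 9.56 in ced-4, a difference that was not called. ugt-16 gave -2.56 (adjusted p = 0.0206): it read 4.11, 4.25 and 4.2 in nuo-6 ced-4 against 7.22, 6.07 and 6.60 in ced-4. Without the first ced-4 array that interaction was -2.27 (adjusted p = 0.0592). ugt-17 gave -1.35 (adjusted p = 0.0444), which was -1.29 without the third ced-4 array (adjusted p = 0.0957). The positive ones were ugt-8 (2.08), ugt-9 (1.83) and ugt-29 (1.46). ugt-8 was 1.87 without the first nuo-6 ced-4 array (adjusted p = 0.0641), and ugt-9 was 1.72 without the last one (adjusted p = 0.0932).

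**Figure D3:**
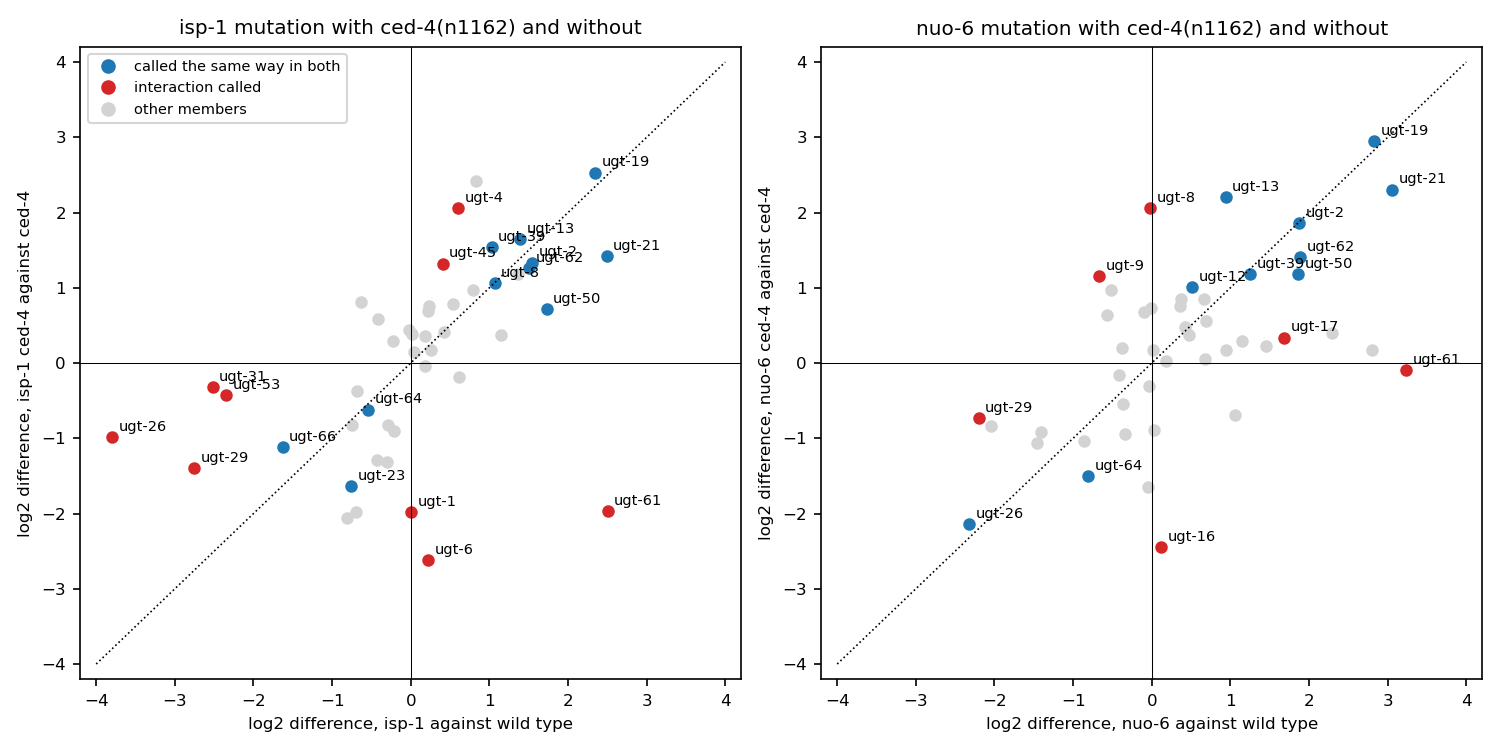
Effect of each mitochondrial mutation on the ced-4 background (double mutant minus ced-4, log2, vertical axis) against its effect on the wild type background (single mutant minus wild type, log2, horizontal axis) for the 46 tested ugt genes, isp-1 on the left and nuo-6 on the right. Members with a called interaction stand off the diagonal, and ugt-61 lies farthest below it in both panels.

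The double mutants were also set against their single mutants. Between isp-1 ced-4 and isp-1, 4 members rose in the double mutant and 5 fell, where 15.5% of all genes rose and 18.0% fell, 33.5% in all. The split turned with the scaling: 11 rose and 4 fell with each array centred on its median, which shifted the median of all genes by 0.20, and 3 rose and 7 fell under cyclic loess. Without the 3 arrays that stood apart 11 rose and 6 fell, and 4 and 5 calls were left without the third and without the second isp-1 ced-4 array. All 10 sperm markers were lower in the double mutant (median difference -2.81) and 6 of 16 oocyte markers were higher, and their part was not tested. ugt-11 read 3.35, 3.51 and 3.40 in isp-1 ced-4 against 4.09, 5.29 and 5.30 in isp-1, and it fell by 1.47 (SE 0.36, adjusted p = 0.00511). ugt-58 fell by 0.77 (adjusted p = 0.00368). ugt-60 fell by 1.17, and its adjusted p was 0.051 without the third isp-1 ced-4 array. ugt-21 fell by 1.05, and its difference was -0.80 without the 3 arrays that stood apart (adjusted p = 0.152). ugt-41 fell by 1.09, with a difference of -0.91 without the second isp-1 array (adjusted p = 0.157). ugt-28 rose by 0.88 and ugt-24 by 0.47, and their differences were 0.71 without the second isp-1 ced-4 array (adjusted p = 0.142) and 0.34 without the third (adjusted p = 0.0774). The rises of ugt-16 (1.65) and ugt-43 (1.81) were called although the arrays overlapped. Without the first isp-1 ced-4 array ugt-16 differed by 1.14 (adjusted p = 0.0749). ugt-43 differed by 1.16 without the third isp-1 ced-4 array (adjusted p = 0.248), by 1.12 without the third isp-1 array (adjusted p = 0.226) and by 2.85 without the first (adjusted p = 0.00215).

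Between nuo-6 ced-4 and nuo-6, 1 member rose in the double mutant and 7 fell, where 12.2% of all genes rose and 16.6% fell, 28.8% in all. Leaving out the 3 arrays that stood apart gave 5 rises and 11 falls, and under cyclic loess 4 rose and 5 fell. Single arrays decided much of this count. 2 calls were left without the first nuo-6 ced-4 array, 3 without the third, 5 without the second, and 13 were made without wild type replicate 3. Leaving out the first nuo-6 array, the third paraquat array or the second ced-4 array gave 5 each. A fit of only the groups compared called 15. In the double mutant 11 of 13 hypodermis and molting genes and 4 of 10 sperm markers were higher and 11 of 16 oocyte markers lower, and their part was not tested. ugt-64 read 7.22, 7.31 and 7.30 in nuo-6 ced-4 against 8.56, 7.75 and 8.45 in nuo-6, and fell by 0.98 (SE 0.20, adjusted p = 0.0014). ugt-26 fell by 1.56, with a difference of -1.07 without the second nuo-6 array (adjusted p = 0.101). ugt-60 fell by 1.14, with a difference of -0.87 without the first nuo-6 array (adjusted p = 0.0714). ugt-8 rose by 1.35, with a difference of 1.14 without the first nuo-6 ced-4 array (adjusted p = 0.0788). The falls of ugt-32 (1.20) and ugt-51 (1.07) rested on the second nuo-6 array, without which the differences were -0.44 and -0.47 (adjusted p = 0.297 and 0.272). ugt-31 fell by 1.02, with a difference of -0.97 without the third nuo-6 ced-4 array (adjusted p = 0.108), and ugt-45 fell by 0.66, with a difference of -0.51 without the first nuo-6 array (adjusted p = 0.116).

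Against wild type, 16 members rose and 12 fell in isp-1 ced-4, where 29.3% of all genes rose and 22.5% fell, 51.8% in all, and 13 rose and 6 fell in nuo-6 ced-4, where 15.4% rose and 16.2% fell, 31.6% in all. The largest rises in isp-1 ced-4 were those of ugt-19 (2.97), ugt-44 (2.83) and ugt-43 (2.64). In nuo-6 ced-4 they were those of ugt-61 (3.69), ugt-19 (3.39) and ugt-50 (2.46), for which another probe set gave 0.15 (adjusted p = 0.769). ugt-26 fell by 2.72 in isp-1 ced-4 and by 3.88 in nuo-6 ced-4. There were 30 and 21 calls without the 3 arrays that stood apart. In isp-1 ced-4 all 10 sperm markers fell (median difference -3.74), with array means of 3.82 to 6.26, against 7.86 to 8.75 in wild type. 14 of 16 oocyte markers rose in it (median 0.68). In nuo-6 ced-4, 10 of 13 hypodermis and molting genes rose, 1 of 10 sperm markers fell and 3 of 16 oocyte markers fell. Their part in the ugt differences was not tested.

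8 of the 46 members were called in none of the 6 groups against wild type: ugt-1, ugt-9, ugt-18, ugt-25, ugt-28, ugt-47, ugt-48 and ugt-63. Their differences from wild type reached 1.17 at most. Over all genes tested, between 14.9% (ced-4) and 51.8% (isp-1 ced-4) were called per group, and the share called in none of the 6 is not given. ugt-47 averaged between 9.16 ± 0.17 in paraquat and 10.20 ± 0.07 in ced-4 (SD, n = 3 each), with 9.71 ± 0.59 in wild type (SD, n = 4). ugt-46 fell by 0.82 with paraquat and by 1.00 in isp-1 ced-4 against wild type. Its array values in paraquat overlapped wild type, and the paraquat call ended without the second paraquat array (-0.76, adjusted p = 0.085) and without wild type replicate 1 (-0.63, adjusted p = 0.0813).

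Many members lie beside one another in the genome. In the RefSeq order of genes, 31 members stood in 10 runs of direct neighbours, the longest of 7 on chromosome V (ugt-11, ugt-9, ugt-10, ugt-67, ugt-8, ugt-14 and ugt-13). Some neighbours had unlike values. In the run of chromosome I, ugt-26 fell by 3.8 in isp-1, whereas ugt-28 and ugt-25 of the same run were not called (-0.42, adjusted p = 0.313, and -0.81, adjusted p = 0.195). ugt-19 rose by 2.35 in isp-1 and its neighbour ugt-20 differed by 0.04 (adjusted p = 0.911). ugt-2 rose by 1.54 in isp-1 and ugt-1 differed by 0.01 (adjusted p = 0.991). Within the longest run, ugt-13 rose in isp-1 by 1.39 and ugt-8 by 1.07 (adjusted p = 0.0495), whereas ugt-11 and ugt-9 were not called (0.19 and -0.23). In the run of ugt-5, ugt-4, ugt-6 and ugt-3, ugt-5 fell with paraquat and ugt-6 rose in ced-4. There ugt-4 rose by 2.06 in isp-1 ced-4 against ced-4, but it passed the filter only through its isp-1 ced-4 arrays (5.13, 3.88 and 3.87). Its ced-4 arrays (2.51, 2.35 and 1.83) lay under the median of the table, so the size of that rise is uncertain. By contrast, ugt-43 and ugt-44 both rose in nuo-6. The differences between neighbours were not tested.

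3 members had more than 1 tested probe set. Those of ugt-50 disagreed in several comparisons. Its other probe sets differed by 0.14 and -0.69 in ced-4, against the 1.28 given above, and by -0.54 and -0.51 with paraquat, against -1.20. Neither was called in ced-4 or with paraquat. All 3 rose in isp-1 (1.73, 2.25 and 2.62) and in nuo-6 (1.86, 2.52 and 2.53). Between the double and the single mutants the probe set used was not called, at 0.60 for nuo-6 ced-4 over nuo-6 (adjusted p = 0.0917) and 0.28 for isp-1 ced-4 over isp-1 (adjusted p = 0.442). The others were lower in nuo-6 ced-4 by 0.69 (adjusted p = 0.0495) and 2.38 (adjusted p = 6.26e-05), and lower in isp-1 ced-4 by 0.75 (adjusted p = 0.0321) and 1.27 (adjusted p = 0.00925). With nuo-6 ced-4 set against ced-4 they differed by 1.69 and 0.83 (adjusted p = 0.107), against 1.18 for the probe set used. The nuo-6 interaction was called for 1 of the 3 (-1.69, adjusted p = 0.0288), which was not the one used (-0.69, adjusted p = 0.235). The second probe set of ugt-46 was not called with paraquat (-0.53, adjusted p = 0.0584). It was lower in isp-1 ced-4 than in wild type by 1.31, than in isp-1 by 1.20 (adjusted p = 0.00114), and in nuo-6 ced-4 than in nuo-6 by 0.84 (adjusted p = 0.0109). Neither of the last differences was called for the probe set used (-0.72, adjusted p = 0.0776, and -0.33, adjusted p = 0.445).

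UDP-sugars are made, converted and carried by other genes. Of 5 named, 3 were tested: sqv-4, the UDP-glucose dehydrogenase, sqv-1, the UDP-glucuronate decarboxylase, and sqv-7, a nucleotide-sugar transporter. sqv-4 and sqv-1 convert UDP-sugars rather than make UDP-glucose, so their levels do not measure the supply of that donor. With paraquat all 3 rose against wild type, sqv-4 by 0.90, sqv-1 by 0.64 and sqv-7 by 0.82, where 25.9% of all genes rose. None was called with limma in isp-1, nuo-6 or ced-4, where 2, 1 and 0 had an unadjusted p under 0.05. All 3 also rose in isp-1 ced-4 against wild type, with a median difference of 0.49, where 29.3% of all genes rose. In isp-1 ced-4 against ced-4, sqv-4 rose by 0.52 and sqv-7 by 0.55, where 29.5% of all genes rose.

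Regulators of detoxification and stress genes were also listed, of which 12 of 14 were tested. In isp-1 4 rose and 1 fell, in nuo-6 4 rose, and with paraquat 5 rose and 1 fell, all against wild type. These called regulators were 41.7%, 33.3% and 50% of the 12, where 23.3%, 33.9% and 42.1% of all genes were called. atfs-1, a factor of the mitochondrial unfolded protein response, rose by 1.18 in isp-1, 1.59 in nuo-6 and 0.93 with paraquat. aha-1, the partner of the aryl hydrocarbon receptor, rose by 0.66, 0.54 and 0.81 in the same order. wdr-23, which restrains SKN-1, rose by 0.60, 0.67 and 0.72. elt-7, an intestinal GATA factor, fell by 1.22 in isp-1 and by 0.96 with paraquat. skn-1, a transcription factor that drives many detoxification genes, rose by 1.70 in isp-1 ced-4 against ced-4, where 52.1% of all genes were called. It was not called in isp-1 (0.30, adjusted p = 0.248), nuo-6 (0.21, adjusted p = 0.388) or with paraquat (0.24, adjusted p = 0.309). Nor was it called in nuo-6 ced-4 against ced-4 (0.54, adjusted p = 0.0608).

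The other families of detoxification were counted beside the ugt genes. Over all genes 13.0% rose and 10.3% fell in isp-1, 18.2% and 15.7% in nuo-6, and 25.9% and 16.2% with paraquat. Of 38 cytochromes P450, 12 rose and 2 fell in isp-1, 18 rose and 3 fell in nuo-6, and 3 rose and 3 fell with paraquat. The called P450 genes were 36.8% of the 38 in isp-1, 55.3% in nuo-6 and 15.8% with paraquat. Of 23 glutathione S-transferases, which attach glutathione, 9 rose and none fell in isp-1, 12 rose and 2 fell in nuo-6, and 1 rose and 3 fell with paraquat. The called ones were 39.1%, 60.9% and 17.4% of the 23. Among 23 short-chain dehydrogenases 1 rose and 3 fell in isp-1, 5 rose and 3 fell in nuo-6, and 3 rose and 3 fell with paraquat. Of 21 ABC transporters, which export conjugates, 4 rose and 2 fell in isp-1, 8 rose and 2 fell in nuo-6, and 3 rose and 5 fell with paraquat. cyp-14A1 rose by 3.68 in isp-1, gst-13 fell by 1.07 with paraquat and cyp-35C1 fell by 2.34 with paraquat. In nuo-6 ced-4 against ced-4, 14 of the 23 glutathione S-transferases rose, gst-13 among them by 1.62, where 9.51% of all genes rose and 8.69% fell. In the mean of isp-1 and nuo-6 against paraquat, 21 P450 genes were higher and 5 lower, and 13 glutathione S-transferases were higher and none lower. Over all genes 22.6% were higher and 25.4% lower in that comparison.

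**Figure D4:**
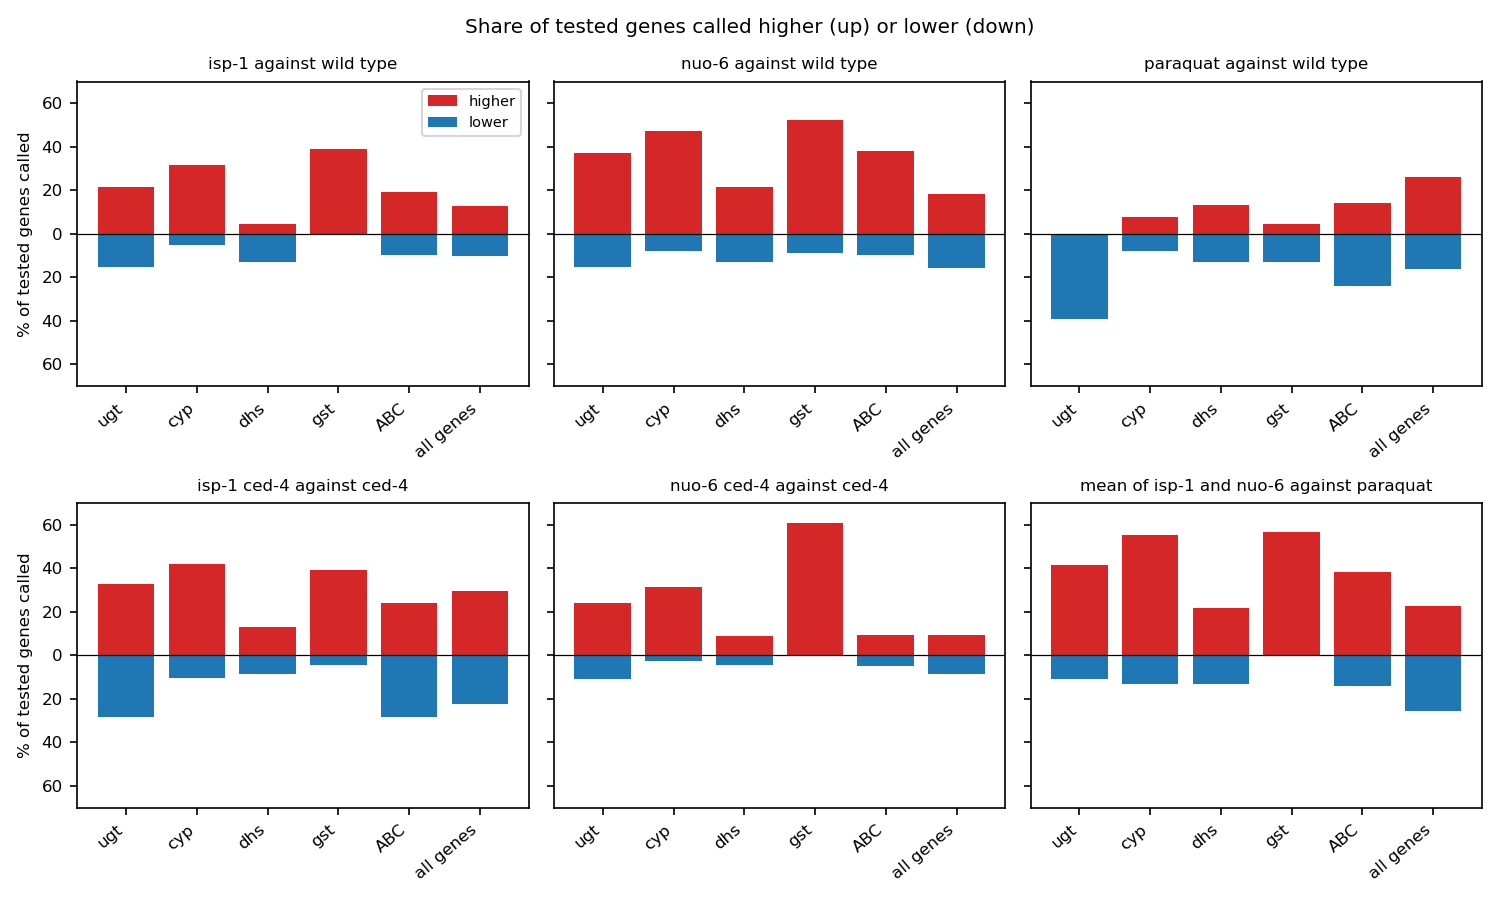
Percent of tested genes called higher (up) or lower (down) in each family and over all genes, by comparison. With paraquat the ugt bars point down only, at 39.1%, whereas in isp-1 and nuo-6 they point both ways.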

How the data were processed

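RNA of 22 samples in 7 groups was hybridised to 1-colour Affymetrix arrays. The values were deposited by the authors as 1 table of log2 signals per probe set. GCRMA is the tool named per the submitters' processing notes, and its version is not given in the sources used here. The log2 base was read from the range of the values, 0.926 to 15.3. Of 22625 probe sets, 77 controls were left out. Names came from the platform annotation, updated through RefSeq (WBcel235): 20766 probe sets had 1 symbol, 887 several and 895 none, and only the first kind named a gene. Coordinates are not given, since the files name no build. Where a gene had several probe sets, the one with the highest mean over the 22 arrays stood for it.

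Probe sets reaching the table's median, 3.68, on at least 3 arrays were kept, 12639 in all. limma 3.58.1 in R 4.3.3 fitted the means of all 7 groups with no covariate (lmFit, eBayes, two-sided), with Benjamini-Hochberg adjustment over the tested probe sets. Precision is limited by how many arrays there are. The procedure was tested on simulated data with 200 changed probe sets. Genes named with values were, per comparison, up to 6 with the largest rise and 6 with the largest fall among called members whose arrays did not overlap, and those called alike or oppositely in isp-1, nuo-6 and paraquat. They also included the 3 largest interactions each way, 5 members picked by the mean signal of their probe sets (a choice, not a ranking of levels), members whose probe sets disagree, and up to 3 members of each other list per comparison. Others are named as exceptions or neighbours. Members and lists were chosen with earlier results of these data known. Alternatives were other filters, cyclic loess, median centring, other probe set choices, trend and robust eBayes, the replicate number as a block, fits of only the groups compared, and leaving out each array. Replicate numbers did not pair the samples: of 63 same-numbered pairs, 12 had a correlation of deviations over 0.1 (range -0.25 to 0.28).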

Additional observations from a re-analysis of the deposited data

Results flagged for a closer look

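The ugt-47 signal of wild type replicate 3 was 8.84, whereas the other wild type arrays lay between 9.91 and 10.1. It was the 1 outlying array found among the 46 members in the group of 4 wild type arrays, where chance marks about 1 group in 20.

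The remaining results are those in which the effect of a mitochondrial mutation differed between the ced-4 and the wild type background, by the interaction test with limma. For isp-1 the interaction was -4.48 for ugt-61, -2.85 for ugt-6 and -1.99 for ugt-1, and 2.82 for ugt-26, 2.20 for ugt-31, 1.93 for ugt-53, 1.46 for ugt-4, 1.35 for ugt-29 and 0.91 for ugt-45 (log2, adjusted p between 1.27e-05 and 0.0405). Of these, ugt-4 passed the filter only through its isp-1 ced-4 arrays. For nuo-6 it was -3.33 for ugt-61, -2.56 for ugt-16 and -1.35 for ugt-17, and 2.08 for ugt-8, 1.83 for ugt-9 and 1.46 for ugt-29 (adjusted p between 0.00202 and 0.0444).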

How the results depend on the processing

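Of 137 values of named genes, 93 kept their call under every alternative run and 44 lost it under at least 1. None of the 4352 recomputed values reversed its sign, but many could not. Other filters, trend and robust eBayes, fits of only the groups compared and leaving out an array of another group keep the difference itself unchanged. Fits of only the groups compared called 8 members in isp-1, 15 in nuo-6 and 8 in ced-4 against wild type, 15 for nuo-6 ced-4 over nuo-6, 35 in nuo-6 ced-4 against ced-4, and 5 and 10 in the isp-1 and nuo-6 interactions. The shares over all genes in these fits are not given. With gene-specific probe sets alone, which leaves 35 members, the counts were 8 in ced-4, 5 for nuo-6 ced-4 over nuo-6 and 15 in the mutants against paraquat. Median centring gave 15 for isp-1 ced-4 over isp-1. With the replicate number as a block, 3 nuo-6 interactions were called in place of 6, and 12 members in paraquat in place of 18. Without the 3 arrays that stood apart, 17 were called for isp-1 ced-4 over isp-1, 16 for nuo-6 ced-4 over nuo-6, 11 in the nuo-6 interaction and 12 in nuo-6 against isp-1.

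Leaving out single arrays gave these ranges of called members: against wild type, 15 to 20 in isp-1, 20 to 25 in nuo-6, 9 to 21 in paraquat, 9 to 17 in ced-4, 24 to 31 in isp-1 ced-4 and 16 to 21 in nuo-6 ced-4. The ranges were 4 to 12 for isp-1 ced-4 over isp-1, 2 to 13 for nuo-6 ced-4 over nuo-6, 20 to 30 in isp-1 ced-4 against ced-4 and 14 to 20 in nuo-6 ced-4 against ced-4. They were 5 to 12 and 2 to 8 in the isp-1 and nuo-6 interactions, 0 to 8 in nuo-6 against isp-1 and 20 to 26 in the mutants against paraquat. Under cyclic loess the isp-1 interactions split 6 to 5 and those of nuo-6 4 to 2. Wild type was the most variable group, with a median SD of 0.298 over all probe sets tested, and 18 members were too dim to test. The causes of these changes were not tested.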

Other observations

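Some members had high values on few arrays. The untested ugt-15 read 2.50, 4.78, 4.04 and 3.60 in wild type, whereas its highest value on the 18 other arrays was 2.83. ugt-54, also untested, read 5.51 on wild type replicate 3 and between 2.44 and 3.89 on the other arrays. ugt-18 read 6.73 on wild type replicate 3, whereas the other wild type arrays were at 3.30, 2.52 and 2.77. The second nuo-6 array had 6.33 for ugt-32, 7.32 for ugt-51, 7.46 for ugt-25 and 9.15 for ugt-28, above both other nuo-6 arrays, whose highest values were 4.19, 5.59, 5.88 and 7.73. These genes were chosen after their values were seen.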
